A study of Mus musculus with 2 samples.

Results

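Intragenic sites of shorter genes are accessible-chromatin summits that lay inside protein-coding genes under 200 kb and away from gene ends, in spinal motor neurons of the mouse embryo. A summit was counted when it fell on chromosomes 1 to 19, inside at least 1 protein-coding gene span, when each span around it was under 200 kb, and when it was more than 1 kb from the nearest end of a protein-coding gene. The rule used position alone and no measured value. Of 138387 summit entries in the peak list, 32276 met it, in 25220 separate intervals. They made up 24.0% of the 134427 entries on the 19 autosomes. The cells came from 1 group, C57/Bl6 embryos of day 10.5 that carried the Hb9::GFP reporter, and were sorted by FACS as GFP+. Mnx1, a homeobox gene needed by motor neurons, was formerly called Hb9, and the reporter marks cells in which its regulatory sequence is active. The group held 2 replicates whose peaks were deposited as 1 pooled list. No value below therefore has a replicate error, no second condition exists to compare with, and no test between groups could be run. Intervals given below are 95% intervals that cover counting error only and treat neighbouring entries as independent.

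In ATAC-seq, Tn5 transposase inserts sequencing adapters into DNA that is not wrapped tightly in chromatin, so that read pileups mark promoters, enhancers and other bound sequence. Inside a gene such pileups can sit at alternative promoters, which start shorter or differently spliced transcripts, at enhancers in introns, or at sequence bound by structural proteins. Promoters of broadly used genes often lie in CpG islands, stretches rich in the CG dinucleotide that mammalian genomes otherwise lack. Motor neurons leave the progenitor zone of the ventral neural tube at about this stage, under homeobox factors such as Isl1, Lhx3 and Mnx1. In a bulk profile, a site open in few cells and a site weakly open in many cells cannot be told apart.

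Annotated coding starts that lie inside a shorter gene carried the clearest difference among the sites, and the difference followed the CG content of the sequence. The 200 bases before the start are therefore shown for 5 internal starts that had a site within 500 bp and 2 that had none, from RefSeq (GRCm38.p6), 5′ to 3′ on the strand of the gene, with each CG dinucleotide in capitals. The 7 starts were picked after their values were seen. Isl2 (chr9:55540949-55541148, plus strand), Lhx3 (chr2:26206576-26206775, minus strand) and Ebf3 (chr7:137314446-137314645, minus strand) encode transcription factors of motor neurons. Elavl2 (chr4:91376497-91376696, minus strand) and Elavl4 (chr4:110287528-110287727, minus strand) encode neuronal RNA-binding proteins.
Isl2: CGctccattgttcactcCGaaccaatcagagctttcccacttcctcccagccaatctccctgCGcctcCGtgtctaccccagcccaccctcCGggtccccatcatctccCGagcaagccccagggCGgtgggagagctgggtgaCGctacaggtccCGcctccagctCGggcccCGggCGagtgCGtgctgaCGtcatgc
Lhx3: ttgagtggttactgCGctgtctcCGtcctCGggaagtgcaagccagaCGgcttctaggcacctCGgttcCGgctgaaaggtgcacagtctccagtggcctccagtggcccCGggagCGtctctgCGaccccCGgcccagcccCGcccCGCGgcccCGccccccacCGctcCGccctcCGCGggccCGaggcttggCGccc
Ebf3: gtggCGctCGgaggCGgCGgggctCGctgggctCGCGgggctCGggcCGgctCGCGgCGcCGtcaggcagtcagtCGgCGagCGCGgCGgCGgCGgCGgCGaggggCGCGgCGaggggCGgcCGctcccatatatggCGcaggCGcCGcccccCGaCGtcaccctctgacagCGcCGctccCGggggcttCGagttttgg
Elavl2: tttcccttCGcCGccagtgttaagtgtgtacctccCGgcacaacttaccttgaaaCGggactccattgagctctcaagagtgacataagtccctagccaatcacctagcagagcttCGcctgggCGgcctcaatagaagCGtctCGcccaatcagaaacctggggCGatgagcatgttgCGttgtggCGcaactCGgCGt
Elavl4: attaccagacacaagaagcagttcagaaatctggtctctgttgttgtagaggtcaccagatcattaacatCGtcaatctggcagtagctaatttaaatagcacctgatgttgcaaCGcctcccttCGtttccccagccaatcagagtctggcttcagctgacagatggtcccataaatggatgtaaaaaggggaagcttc
Without a site within 500 bp were a start of Sv2b (chr7:75220020-75220219, minus strand), a synaptic vesicle glycoprotein gene, and a start of Slc1a2 (chr2:102706238-102706437, plus strand), a glutamate transporter gene of astrocytes.
Sv2b: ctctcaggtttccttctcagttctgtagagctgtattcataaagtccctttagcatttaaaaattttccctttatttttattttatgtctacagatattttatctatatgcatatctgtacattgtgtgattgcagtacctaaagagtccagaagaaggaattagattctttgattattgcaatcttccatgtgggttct
Slc1a2: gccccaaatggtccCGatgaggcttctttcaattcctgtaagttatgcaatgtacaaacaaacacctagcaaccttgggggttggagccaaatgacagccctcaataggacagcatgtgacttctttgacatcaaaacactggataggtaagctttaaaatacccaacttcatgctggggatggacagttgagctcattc
The stretches before Isl2, Lhx3, Ebf3 and Elavl2 hold 14, 20, 36 and 13 CG dinucleotides. That of Elavl4 holds 3, although its start had a site. Those of Sv2b and Slc1a2 hold 0 and 1.

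The site at the internal Isl2 start had 120 reads at its summit over a local background of 16.1 reads, a 7.10-fold enrichment, 108 bp from the start. Reads here are the pileup at the summit, and the fold is the authors' ratio of that pileup to the local background. At Lhx3 the summit lay 22 bp from the start with 41 reads (3.77-fold), and at Ebf3 it lay 32 bp away with 115 reads (4.43-fold, over a background of 25.2 reads). Elavl2 had 220 reads 63 bp from its start (7.98-fold). Elavl4 had 144 reads 183 bp from its start (5.91-fold). The CG-poor Elavl4 start thus had more reads than the CG-rich starts of Isl2, Lhx3 and Ebf3 shown.

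In all, 3230 coding starts in the RefSeq promoter table lay inside shorter genes and more than 1 kb from a gene end. Of these, 1731 (53.6%, interval 51.9 to 55.3%) had an entry within 500 bp, in 1384 genes. Neighbouring starts of the same gene can share 1 entry, and the intervals for starts treat them as independent. The 300-base window around each start, 250 bases before to 50 after it, held a median of 19 CG dinucleotides (quartiles 11 and 28) where there was a site and 4 (quartiles 2 and 6) where there was none. The G and C share of those windows had a median of 61.7% at starts with a site and 49.3% at starts without. The share of internal starts with a site climbed with each class of CG count. It was 10.4% at 0 to 2 CG (55 of 527 starts), 17.8% at 3 to 5, 39.4% at 6 to 10, 80.9% at 11 to 15, 94.3% at 16 to 20 and 97.5% at 21 to 60 (802 of 823). Strength moved the same way: the median fold at starts with a site was 3.30 in the lowest class and 7.95 in the highest, with medians of 26 and 112 reads.

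Gene-end starts, those within 1 kb of either end of any protein-coding gene, showed a similar course. Internal starts were entered more often than gene-end starts at 0 to 2 CG (10.4%, interval 7.96 to 13.4%, against 4.89%, interval 4.14 to 5.73%) and less often at 6 to 10 CG (39.4%, interval 35.4 to 43.5%, against 53.8%, interval 51.5 to 56.1%). At 11 to 15 CG the shares were 80.9% of internal starts and 89.1% of gene-end starts, and at 21 to 60 CG they were 97.5% and 99.0%. Over all starts, 53.6% of the internal ones had an entry, against 66.2% of 16377 starts within 1 kb of a gene end.

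**Figure D1:**
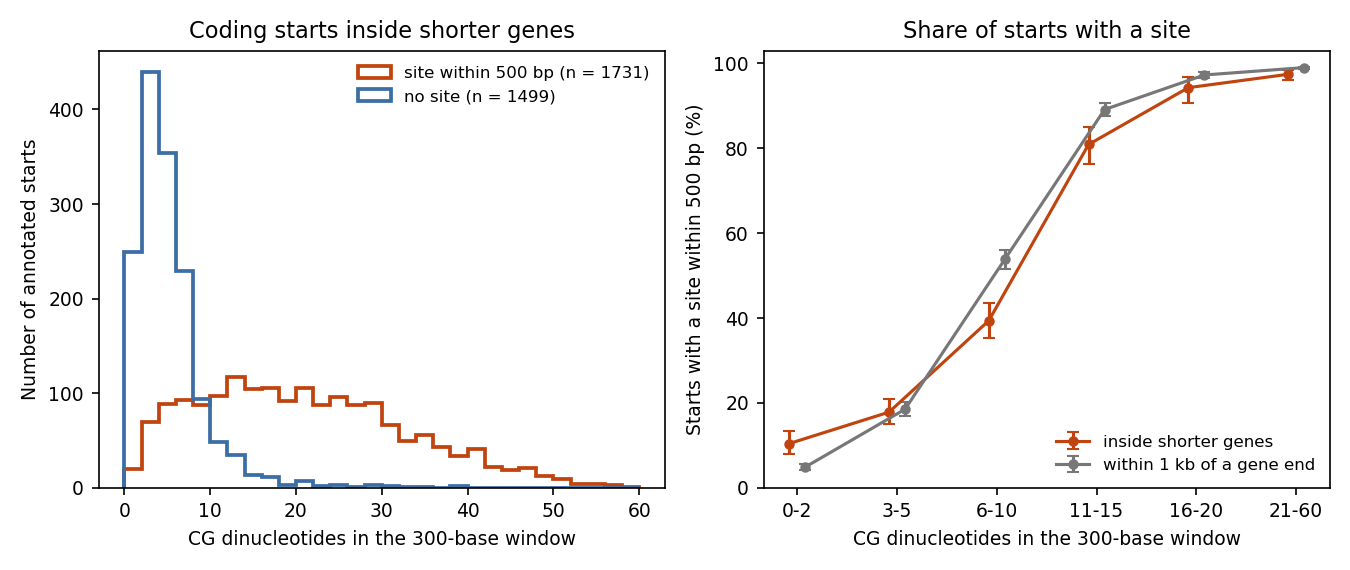
Left, number of annotated coding starts inside shorter genes by CG dinucleotides in the 300-base window (bins of 2), for starts with a site within 500 bp and starts without. Right, share of starts with a site (%) by class of CG count, for internal starts and for starts within 1 kb of a gene end; bars are 95% exact binomial intervals, and both curves climb to 97.5% and 99.0%.

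Short motifs were searched on both strands of the same windows. The GC box (GGGCGG), which itself contains a CG, was found in 61.8% of windows at internal starts with a site and in 14.0% of those without, against 47.0% of all 20085 coding windows of that length. The E-box CACGTG, which also holds a CG, was in 8.43% and 3.87%, against 7.89%. Over all windows the motifs without CG were less frequent at starts with a site. The TATA box (TATAAA) was in 6.12% of windows at starts with a site and 15.9% of those without, against 12.7% of all windows. The AP-1 motif (TGACTCA) was in 3.52% and 7.40%, and the homeobox core TAATTA in 2.72% and 5.74%. CCAAT was in 34.0% and 34.8%, against 38.1% of all windows. Among windows with 0 to 5 CG the TATA box was in 16.8% of 179 with a site and 18.7% of 1043 without, a smaller gap than over all windows. At matched CG the order of CCAAT turned: it was in 43.0% of windows with a site and 35.7% of those without at 0 to 5 CG, in 40.7% and 33.1% at 6 to 15 CG, and in 29.2% of 1050 and 27.8% of 36 at 16 to 60 CG. The homeobox core was in 6.70% with a site and 6.14% without at 0 to 5 CG, and in 3.61% and 5.24% at 6 to 15 CG. These are matches of letters, not binding sites.

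Sites at internal coding starts were a small and strong group. Among the 31322 sites on chromosomes with start windows, 2384 (7.61%, interval 7.32 to 7.91%) had their summit within 500 bp of a coding start. Their median fold was 5.54 (quartiles 3.30 and 8.30) and their median pileup 67 reads over a background of 11.1 reads. The 28544 sites away from coding and lncRNA starts (91.1%) had a median fold of 2.77 (quartiles 2.20 and 3.93) and 21 reads over 5.84 reads. Sites at the starts of long noncoding RNAs, 394 in number, lay between them at 3.11-fold and 29 reads. Enrichment of 5-fold or more was reached by 55.5% of the sites at coding starts and 14.3% of those away from starts. The sites at coding starts were also wider, with a median interval of 1069 bp against 412 bp away from starts. Another 954 sites lay on chromosome 18, where starts were not analysed here, with a median fold of 2.91. Genes on other chromosomes also lacked a start in the promoter table, among them Ebf2, Gap43 and Khdrbs3. Strand, taken from that table, was known for 13451 of the 17251 shorter genes. Sites at unlisted starts count here as away from starts, and their number is unknown.

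The excess in strength ended within about 1 kb of a start. Median fold was 6.76 at 0 to 100 bp, 5.97 at 100 to 200 bp, 4.05 at 200 to 500 bp, 2.86 at 500 to 1000 bp, 2.70 at 1000 to 2000 bp and 2.79 beyond 5000 bp. The local background did not follow that course: it was 10.8 reads at 0 to 100 bp and still 11.6 at 1000 to 2000 bp, then 5.48 beyond 5000 bp.

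**Figure D2:**
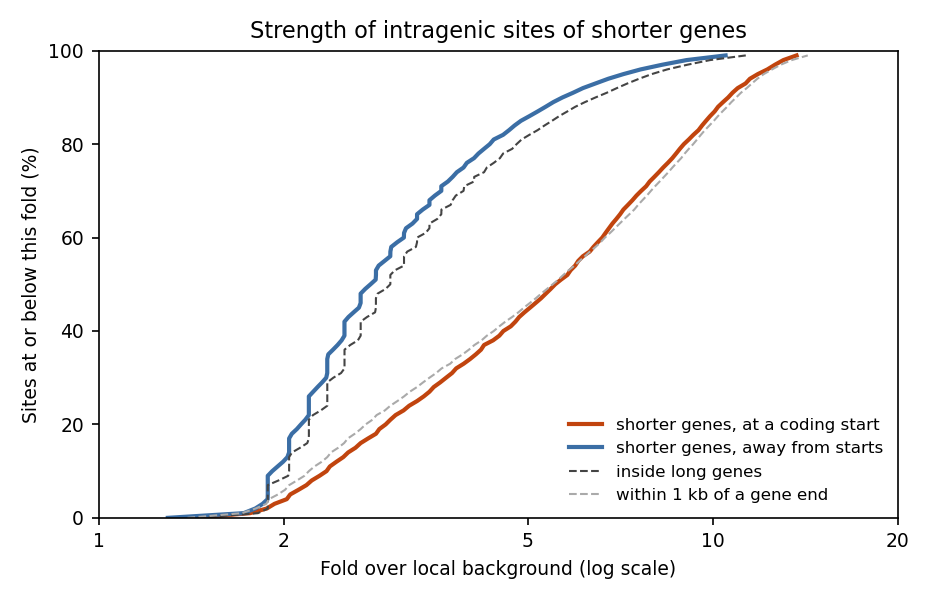
Cumulative share of sites (%) against fold over local background (log scale, up to the 99th percentile) for sites of shorter genes at coding starts and away from starts, with sites inside long genes and within 1 kb of gene ends for reference. The curve at internal coding starts (median 5.54) runs beside that of gene ends (median 5.49), and the curve away from starts (median 2.77) runs just left of that of long genes (median 2.99).

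As a group the sites were modest in strength. Their median fold was 2.83 (quartiles 2.22 and 4.20) and their median pileup 22 reads (quartiles 15 and 38), over a background of 6.07 reads. A q-value under 0.05 was held by 25411 (78.7%), and 5684 (17.6%) reached 5-fold. Sites inside genes of 200 kb or more, 21945 in number, had a median fold of 2.99, 20 reads and a background of 5.37 reads, which is the genome-wide minimum. The 55786 intergenic sites had the same median fold of 2.99 and 21 reads. Gene-end sites, 24420 in number, stood apart at 5.49-fold and 65 reads. The lower fold in shorter than in long genes was seen on 17 of the 19 autosomes, with 1 equal and 1 the other way, while pileups were higher in shorter genes on 16. The background was higher in shorter genes, and its part in the lower fold was not tested.

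Shorter-gene sequence outside gene ends covers 545.6 Mb, 22.5% of the autosomes, and held 59.2 sites per Mb (interval 58.5 to 59.8). Long genes held 55.2 per Mb (54.5 to 56.0), intergenic sequence 39.5 and gene ends 326.7. The density in shorter genes was thus 1.07 times that in long genes and 1.50 times that in intergenic sequence. It ran from 48.5 per Mb on chromosome 16 to 68.6 on chromosome 4, and was above that of long genes on 14 of 19 chromosomes.

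The excess over long genes did not hold at a matched distance from gene ends. At 1 to 2 kb from an end, shorter genes had 118.3 sites per Mb (114.6 to 122.0) and long genes 203.6 (186.1 to 222.4). At 2 to 5 kb the densities were 58.3 in shorter genes and 89.2 in long genes, and at 10 to 20 kb 53.2 and 60.8, with intervals that did not overlap. At 5 to 10, 20 to 50 and 50 to 100 kb the intervals overlapped, the last at 59.7 per Mb in shorter genes and 57.9 in long genes. Intergenic sequence at 1 to 2 kb held 56.1 per Mb, less than either kind of gene. Sequence close to an end makes up more of a shorter gene than of a long one, and the median site of a shorter gene was 11810 bp from the nearest end (quartiles 4296 and 27417 bp).

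Sites near ends were deeper, and part of them shared an interval with an entry at a gene end. The median pileup was 35 reads at 1 to 2 kb, 28 at 2 to 5 kb and 20 beyond 10 kb, over backgrounds of 10.2, 8.15 and 5.37 to 5.49 reads. Of the 4014 sites at 1 to 2 kb, 1233 (30.7%) shared a called interval with a gene-end entry, against 0.773% at 2 to 5 kb and none of 23345 farther in. Of all members, 20.5% of intervals held more than 1 summit, up to 12.

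The crowding near ends belonged mostly to the start side. Strand was known for 13451 genes, and 25181 sites lay in just 1 gene of known strand. At 1 to 2 kb from the nearer end there were 166.5 sites per Mb on the start side (159.3 to 173.8) and 70.7 on the far side (66.1 to 75.6). Without sites at coding starts the values were 113.3 and 69.8. At 2 to 5 kb the order turned once those sites were left out, with 42.5 per Mb on the start side and 54.4 on the far side. Over whole genes the start side held 62.0 sites per Mb and the far side 55.2, and away from coding starts the 2 sides held 52.8 and 53.5.

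**Figure D3:**
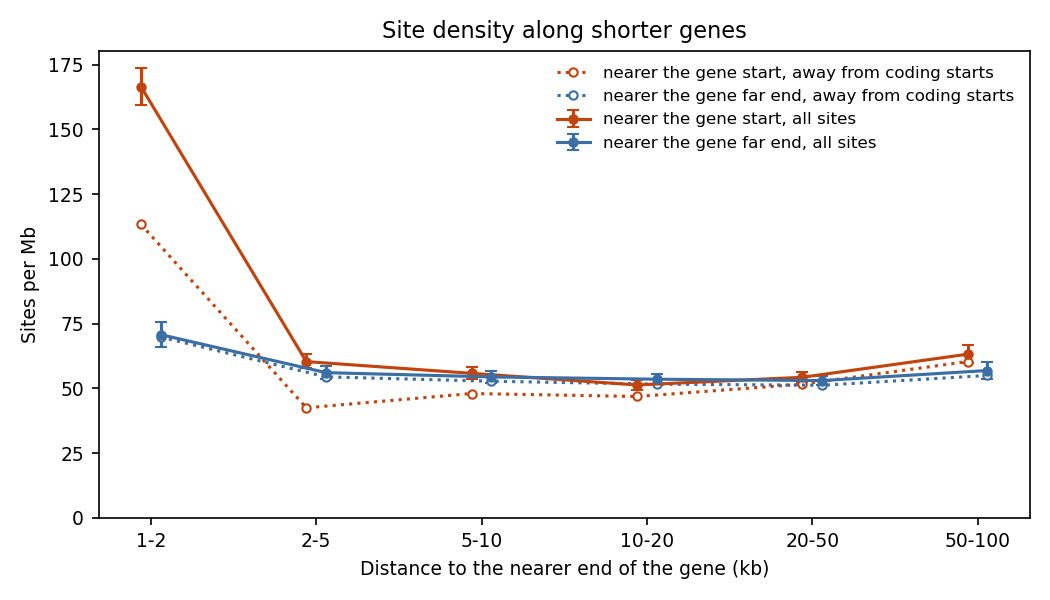
Sites per Mb of shorter-gene sequence by distance to the nearer end of the gene (kb), for the start side and the far side; filled points are all sites with 95% Poisson intervals, open points leave out sites within 500 bp of a coding start. The start side stands at 166.5 per Mb in the first bin and near the far side, at 51.3 to 63.2 per Mb, from 5 kb on.

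Of 17251 shorter genes with sequence that could hold a site, 8693 (50.4%) had at least 1, and 3625 (21.0%) had at least 1 of 5-fold or more. The count rose with the length of the gene. A site was held by 20.8% of genes under 10 kb, 43.3% at 10 to 25 kb, 63.5% at 25 to 50 kb, 81.9% at 50 to 100 kb and 95.2% at 100 to 200 kb. Density did not rise with length: it was 100.7 per Mb under 10 kb, 53.9 at 50 to 100 kb and 61.4 at 100 to 200 kb. The genes under 10 kb had the deepest sites, with a median of 35 reads, and the highest background, 11.3 reads. Their median fold of 2.76 (interval 2.67 to 2.83) was the lowest of the 5 classes. Its interval overlapped that at 25 to 50 kb (2.75 to 2.83), and the part of the background in the fold was not tested. Exactly 1 site was found in 2888 genes, and 10 or more in 683.

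Genes with and without an entry at an end differed in how strong their internal sites were. Among 4775 genes without a gene-end entry, 1973 (41.3%) had an intragenic site, against 6720 of 12476 (53.9%) with one. Genes under 10 kb made up 37.5% of the genes without a gene-end entry and 25.3% of those with one. With the length mix of the genes without an entry, the shares by length class of the genes with one would give 47.2%. Within classes the shares were 13.5% without and 24.9% with a gene-end entry under 10 kb, and 63.7% without and 63.4% with one at 25 to 50 kb. The strongest site of the gene, however, had a median fold of 5.53 in genes without a gene-end entry and 4.06 in genes with one, and was higher in all 5 length classes, as at 100 to 200 kb (8.06 and 6.14). Sites at coding starts, which were stronger than others, were held by 651 of the 1973 genes without a gene-end entry and 833 of the 6720 with one. The part of these sites in the difference in strength was not tested. Of 1059 genes without a gene-end entry that have an internal annotated start, 618 (58.4%) had an entry there, as did 766 of 1421 (53.9%) with a gene-end entry. Isl2 had no entry within 1 kb of either end, and its strongest site was the internal start shown above.

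The genes without a gene-end entry that held most sites were Slit1, Trim2, Dnmt3a, Tbc1d1 and Hivep2. Slit1, which encodes a secreted repellent of growing axons, had 33 sites, the strongest of 9.17-fold with 126 reads, 30.9 kb from the nearer end. Trim2, a ubiquitin ligase of neurons, had 31, of which 6 were at coding starts, and a strongest of 10.4-fold with 144 reads. Dnmt3a, a de novo DNA methyltransferase, had 27 sites, led by 1 of 6.67-fold with 92 reads 219 bp from an internal start. Tbc1d1, a Rab GTPase-activating protein, had 25, led by 1 of 12.1-fold with 155 reads 11 bp from a start. Hivep2, a zinc-finger factor, had 24, with a strongest of 11.8-fold and 127 reads.

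Lists of genes by role were then counted. The lists differ in gene length, so the share that all shorter genes of the same 5 length classes would give was computed for each; it is shown in the plot of shares by list. Of 20 motor neuron regulators under 200 kb, 19 (95.0%, interval 75.1 to 99.9%) had an intragenic site, against 49.7% from length classes. They held 197 sites, 241.9 per Mb, or 4.01 times the count from length classes, and 8 of the 20 had a site of 5-fold or more, where length classes give 23.3%. Beyond 5 kb from any gene end their density was 225.4 per Mb, against 54.6 for all shorter genes. Such a density was not theirs alone: neural progenitor genes held 273.0 per Mb with 21 of 23 genes (91.3%, against 37.4% from length classes), and spinal interneuron regulators 243.3 per Mb with 19 of 27 (70.4%, against 39.6%). Their counts were 4.34 and 4.19 times those from length classes. The progenitor density depended on the limits used: it was 430.7 per Mb with a length limit of 100 kb and 193.3 beyond 5 kb from gene ends, below that of the motor neuron regulators there. Genes of the nervous system that encode effectors held fewer per Mb. The densities were 159.5 for axon guidance genes, 122.2 for cytoskeleton genes, 118.2 for RNA-binding genes, 101.6 for cholinergic and neuromuscular genes and 93.8 for synaptic vesicle genes. In that order their counts were 2.63, 2.10, 1.99, 1.72 and 1.60 times those from length classes. A site was found in all 18 axon guidance genes (79.4% from length classes), 19 of 22 cytoskeleton genes (86.4%, against 55.4%), 13 of 13 RNA-binding genes (76.8% from length classes), 13 of 16 cholinergic and neuromuscular genes (81.2%, against 43.6%) and 15 of 17 synaptic vesicle genes (88.2%, against 63.5%). Beyond 5 kb from any gene end, only genes with sequence left there were counted. The cholinergic share was then 27.3%, of fewer than the 16 genes, against 49.7% of all shorter genes. The density there was 66.7 per Mb, against 54.6, and no share from length classes was computed.

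Genes of other tissues were not without sites. Liver and endoderm genes held 136.6 per Mb, with a site in 16 of 19 (84.2%, against 47.1% from length classes), and muscle and somite genes 127.1, with 13 of 21 (61.9%, against 40.3%). Their counts were 2.29 and 2.15 times those from length classes, and the lists that follow here had 0.648 to 1.82 times. Sensory neuron and neural crest genes held 111.6 with 15 of 17 (88.2%, against 52.4%), and 221.5 per Mb with a length limit of 100 kb. Genes of later glia held 102.1 with 14 of 17 (82.4%, against 52.3%), endothelial genes 71.3 with 14 of 16 (87.5%, against 57.4%) and epidermal genes 61.3 with 11 of 16 (68.8%, against 50.6%). Blood and microglia genes held 38.9 per Mb, with 6 of 14 genes (42.9%, against 44.4%), and housekeeping genes 61.6 with 10 of 28 (35.7%, against 37.2%). With 1 entry per interval the blood density was again 38.9, while that of housekeeping genes was 33.6 and the lower of the pair. The lists hold 13 to 28 genes each, so their intervals are wide, and no list was tested against another.

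**Figure D4:**
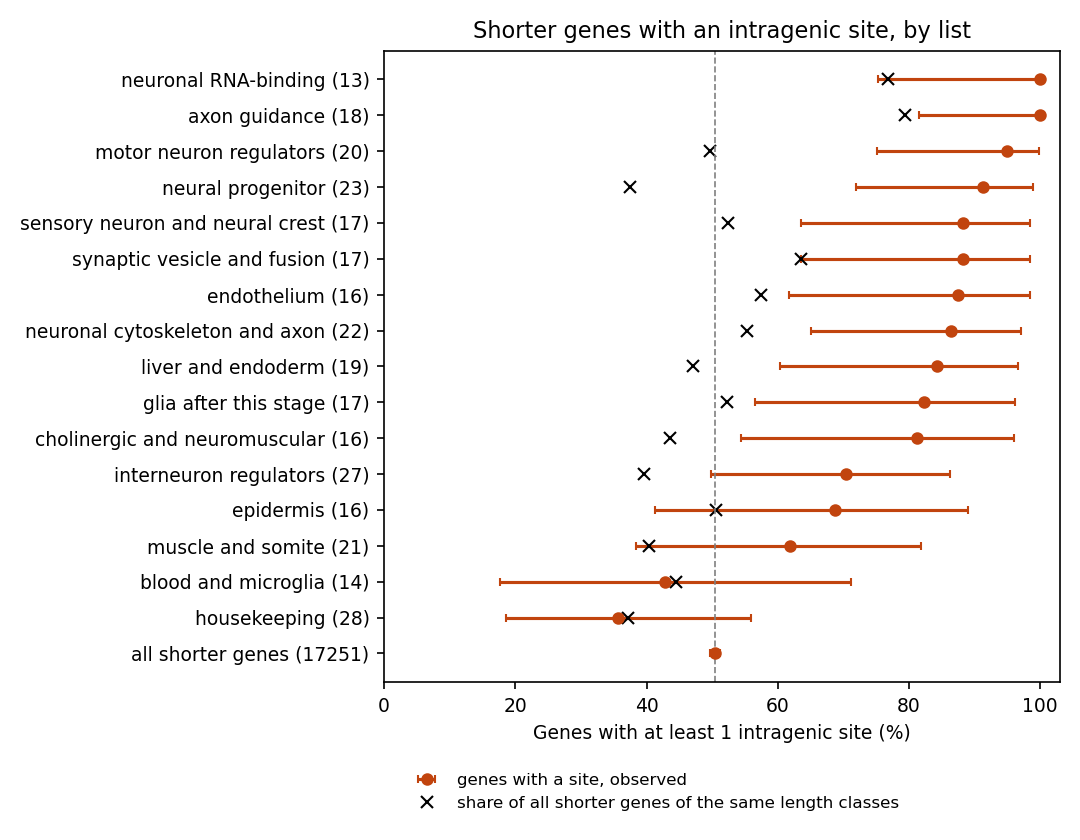
Share of shorter genes with at least 1 intragenic site (%), by list, with 95% exact binomial intervals and the number of genes in brackets; crosses give the share of all shorter genes of the same length classes and the dashed line the share of all shorter genes (50.4%). Motor neuron regulators stand at 95.0% with a cross at 49.7%, and housekeeping and blood genes lie on their crosses.

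Among the motor neuron regulators, the sites gathered in 5 genes. Ebf3, Zeb2, Ebf2, Tshz1 and Lhx4, which all encode transcription factors, held 40, 38, 32, 28 and 20 sites. The sites of Ebf3 ran from 1.62-fold to 5.66-fold, with 13 to 115 reads, and the strongest was at chr7:137302900-137303549. Zeb2, a zinc-finger homeobox repressor, had 11 to 133 reads per site and 5 sites of 5-fold or more, led by chr2:45001468-45002118 at 8.41-fold with 75 reads. Ebf2, a helix-loop-helix relative of Ebf3, had the strongest site of the list, chr14:67344419-67345195, with 107 reads at 9.82-fold, 86.1 kb from the nearer gene end, and 7 sites of 5-fold or more. Tshz1, a zinc-finger homeobox gene, had 12 to 117 reads per site and 1 site over 5-fold (6.42-fold). Lhx4, a LIM homeobox gene and close relative of Lhx3, had 17 to 109 reads per site and 3 sites over 5-fold, of 5.30, 5.32 and 5.43.

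The other regulators held 7 sites or fewer each. Onecut1 and Onecut3, cut-homeobox genes, had 7 each, none above 4.69-fold. Aldh1a2, which encodes the enzyme that makes retinoic acid, had 4, led by chr9:71241145-71242198 at 9.68-fold with 110 reads, 26.0 kb from the nearer end. Isl2 had 4 with 120, 48, 40 and 37 reads, Lhx3 had 3 with 41, 29 and 24, and Onecut2 had 3. Neurod1, Lhx1 and Nkx6-2 had 2 each, and Etv4, Neurog2, Nkx6-1, Pou3f1 and Mnx1 had 1 each. The site of Etv4, an ETS factor of motor pools, had 51 reads at 6.40-fold over a background of 7.12 reads. That of Mnx1 had 57 reads over 40.5 reads of background, 1.40-fold, with a q-value above 0.05, and that of Neurog2 had 132 reads over 33.2, 3.89-fold. Isl1, the LIM homeobox gene needed for motor neuron formation, had no intragenic site in 9.42 kb of sequence, while its gene end held an entry of 10.9-fold. A gene without an entry was below the caller's limit, which was 11 reads at the least, and is not shown to be closed.

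Chat, which encodes the enzyme that makes acetylcholine, held more sites than any other gene of the cholinergic list. It had 9 sites with 13 to 47 reads. The strongest, chr14:32437243-32437928, had 47 reads at 7.54-fold, 24.8 kb from the nearer end. Another of 5.97-fold lay in chr14:32428741-32429657, and no other gene of the list had a site of 5-fold or more. Slc18a3, the vesicular acetylcholine transporter gene, lies within the Chat span and had 1 site of 2.21-fold with 22 reads, which also counts for Chat. Agrn, which encodes the agrin that clusters acetylcholine receptors, had 6 sites, 3 of them at internal coding starts with 39, 36 and 36 reads. Prph, the gene of the intermediate filament peripherin, had 5 summits in 1 interval, chr15:99055142-99056801, with 15 to 42 reads, and no gene-end entry. Calcb, a calcitonin gene-related peptide gene, had 3. Calca, Chrna3, Chrna4, Chrnb4, Mmp9, Slc10a4, Ache and Chodl had 1 each, at 1.86-fold to 4.41-fold. Chrnb2, Musk and Slc5a7, a nicotinic receptor subunit, the muscle receptor for agrin and the choline transporter, had none, Musk in 90.1 kb of sequence.

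**Figure D5:**
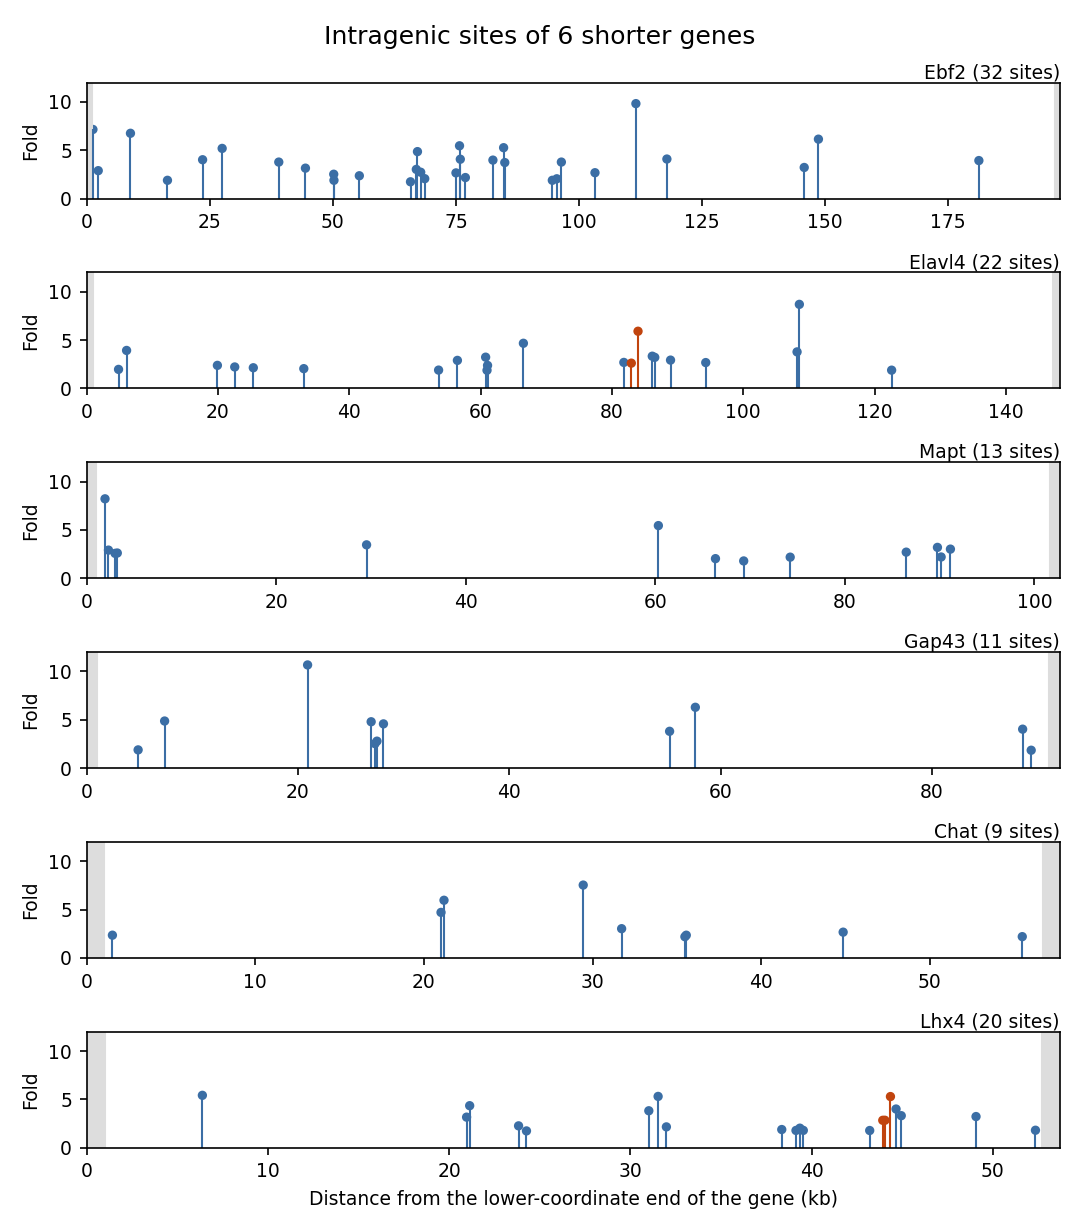
Fold over local background of each intragenic site along Ebf2, Elavl4, Mapt, Gap43, Chat and Lhx4, by distance from the lower-coordinate end of the gene (kb); red marks sites within 500 bp of a coding start, blue the others, and grey the 1 kb at either end that was left out, as was the 1 kb around the ends of Slc18a3 within Chat. The highest points are 9.82-fold in Ebf2, 8.69 in Elavl4, 8.22 in Mapt, 10.7 in Gap43, 7.54 in Chat and 5.43 in Lhx4. Ebf2 and Gap43 had no start in the promoter table, so all their sites are blue.

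Effector genes of neurons mixed strong and weak sites, and those named here had 2 to 6 sites of 5-fold or more each. Gap43, which encodes a growth cone protein, had 11 sites with 11 to 98 reads, led by chr16:42269034-42269816 at 10.7-fold. Mapt, the gene of the microtubule protein tau, had 13 sites and no gene-end entry, and its strongest, 8.22-fold with 116 reads, lay 1.94 kb from the nearer end. Map1b, another microtubule-associated protein gene, had 15 with a strongest of 6.59-fold, and Dpysl3, a growth cone gene, 21 with a strongest of 6.53-fold. Elavl2 had 23 sites and Elavl4 22. In Elavl2 the 3 deepest, with 220, 182 and 178 reads, were all at internal coding starts, and the median of its sites was 14 reads. Elavl4 had its highest fold away from starts, 8.69-fold with 67 reads at chr4:110311776-110312703. Khdrbs3, a splicing regulator, had 16 sites up to 6.55-fold. Among synaptic genes, Sv2c had 14, led by chr13:96010796-96011565 at 13.4-fold with 143 reads. Sv2b also had 14, up to 7.87-fold, although the internal start shown above had none within 500 bp.

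Axon guidance genes held a median of 19.5 sites per gene, the most of any list, and 16 of 18 had a site of 5-fold or more (88.9%, against 48.2% from length classes and 21.0% of all shorter genes). Sema6a and Ephb2, a semaphorin and an Eph receptor gene, had 36 and 35 sites. The strongest site of the list was in Sema3c, chr5:17628276-17629176, with 90 reads at 10.2-fold, 54.0 kb inside the gene. Of their 308 sites, 36 lie in Sema6a on chromosome 18. None of the 272 others was at a coding start of the promoter table, which does not list each gene. The genes are long, with a median span of 136 kb, and length alone gives 117.3 sites, so that the observed count was 2.63 times that.

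Progenitor and interneuron genes held their sites in shorter spans. Pax6, a progenitor homeobox gene, had 17 sites in 26.4 kb, with a strongest of 7.39-fold and 201 reads over a background of 26.3 reads. Notch2 and Rfx4 had 20 sites each, up to 8.09-fold and 6.46-fold. Pax2 and Lmx1b, homeobox genes of interneuron classes, had 23 and 20, and Lhx2 had 10. Tal1, which is both an interneuron and a blood regulator, had 2, of which the stronger had 98 reads at 9.34-fold.

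Marker genes of motor neurons and of other cells were counted. The counts cannot check the label of the cells, because all autosomal markers but 1 of blood had an entry. Mnx1 is also the gene of the reporter by which the cells were sorted. All 8 motor neuron markers (Mnx1, Isl1, Isl2, Lhx3, Chat, Slc18a3, Slc5a7 and Prph) had an entry at a gene end or inside the gene, 6 at an end and 6 inside. Markers of other cells had them too: intragenic sites were found in all 5 endothelial markers, in 3 of 5 muscle and somite markers, and in 4 of 4 eligible markers each of progenitors and of sensory neurons and neural crest. Both eligible blood markers had an intragenic site as well, and of the 3 autosomal ones Hbb-bt, a globin gene, had no entry. Gene-end entries were found for all 5 progenitor markers and all 5 markers of sensory neurons and neural crest. The gene-end counts were 3 of 5 for endothelial, 3 of 5 for muscle and somite and 1 of 3 for blood markers. For comparison, 8693 of all 17251 shorter genes (50.4%) had an intragenic site and 12476 had a gene-end entry. A further 1973 had an intragenic site but no gene-end entry, so most shorter genes had an entry of either kind. The marker counts were not tested against these shares. Among the motor neuron markers, the Mnx1 site had a q-value above 0.05, and the Slc18a3 site also counts for Chat. Accessible sites at a marker do not show that the gene is expressed, and whether other cells contributed reads was not tested.

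Over all shorter genes, Sfi1, a centrosome protein gene, had most sites, 58 in 31 intervals. Their median fold was 1.82, none reached 5-fold, and their median background was 27.4 reads with a maximum of 82.0, against 6.07 for all members. Next came Ebf3 and Tspan5 with 40, Adgrl2, Meis1, Mpped2 and Zeb2 with 38, Nol4l and Tcf7l2 with 37, Casz1 and Sema6a with 36 and Ephb2 with 35. In these 11 genes the median fold of a gene's sites was 2.33 to 3.22 and the median background 5.58 to 11.7 reads. Meis1, a homeobox cofactor of Hox proteins, had 5 sites of 5-fold or more, up to 7.24-fold. Mpped2, a phosphoesterase gene, had 10, up to 11.7-fold with 189 reads, and Casz1, a zinc-finger gene, had 7, up to 11.0-fold with 162 reads.

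Sfi1 was also among the 12 genes with most sites per 10 kb, at 8.57, and the other 11 were under 10 kb long with 1 to 4 intervals each. In 2700081O15Rik, 9 summits shared 1 interval in 6.27 kb of eligible sequence, 14.4 per 10 kb, and none passed 2.72-fold. Bmp4, a signalling ligand, had 6 sites in 3 intervals (11.7 per 10 kb), Efna3, an ephrin, 8 in 4, Bbc3, a cell death gene, 9 in 3 and Eno3, a muscle enolase, 6 in 2. Lratd2, Adamtsl5, Lfng, Adcyap1, Tbx1 and Egr2 had 5 to 7 each. The strongest site in these was in Egr2, a zinc-finger factor of hindbrain and Schwann cells, with 155 reads at 8.42-fold, 132 bp from an internal start. Lratd2 had 3 of its 5 sites over 5-fold.

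The highest folds of all lay elsewhere. In Gldn, which encodes the nodal protein gliomedin, 1 site of 427 bp (chr9:54291351-54291777) had 981 reads over a background of 18.1 reads, 51.6-fold. Sites in Jmy, Cd36, Adam5, Cyp2j13 and Btbd8 had 43.8-, 43.6-, 42.5-, 41.8- and 41.8-fold, with 431, 464, 318, 535 and 429 reads. Kif24, Foxn2, Tmem33 and Zfyve9 held sites of 31.1-fold to 37.9-fold, and a second site in Adam5 had 34.7-fold. By significance, sites in Zc3h7a and Cdk8 joined them, with 780 and 643 reads. None of these was within 5 kb of a start in the promoter table, and none of these genes was in a list. Among the 100 sites with the highest fold, from 13.7-fold up, 25 were at coding starts and 71 away from starts.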

How the data were processed

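The authors deposited 1 narrowPeak list pooled over 2 ATAC-seq replicates (paired 75-nt reads, 8 to 9 PCR cycles). The tools, per the submitters' processing notes, were MACS2 2.2.7.1, SAMtools 1.7.2 and BWA 0.7.1.7, with cutadapt 0.6.2 and Trim Galore, on the mm10 build. For read shifting, duplicate handling and filters the settings were not given in the sources used here, and each could move summits or pileups. The fold is a ratio of pileup to local background, as deposited by the authors. Significance was deposited as the −log10 of a q-value and of a p-value. The score deposited by the authors equals 10 times the −log10 p (99.999% of entries) and was left aside.

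Pileup (reads) and background were solved from fold and −log10 p, assuming a Poisson tail and 1 added to both. Of 138387 pileups, 99.96% were whole to within 0.01. The smallest was 11 reads. The total depth of the libraries is unknown. Genes came from the RefSeq gene table and starts from the RefSeq promoter table (GRCm38.p6, the assembly of mm10), and coordinates are 1-based mm10. Exons and introns were not analysed here. Intervals are exact binomial, exact Poisson or order-statistic. Python 3.11.15, NumPy 2.4.6, pandas 2.3.3 and SciPy 1.17.1 were used, and the steps were tested on simulated data.

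The class of sites, the 16 gene lists (360 genes, 359 matched) and the tests were chosen with earlier results of these data known. Named were the 12 genes with most sites, the 12 with most sites per 10 kb (among genes with 5 kb or more of eligible sequence), the 12 sites highest in −log10 q and in fold, the 3 members with most sites and the strongest site of each list, all motor neuron and cholinergic members, and 5 genes without a gene-end entry. Not each gene so selected is described, and a site among those highest in fold is not reported here. The start results were added after the data were seen, as were the alternatives for them.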

Additional observations from a re-analysis of the deposited data

How the results depend on the processing

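No paired analysis was possible because the replicates were deposited as 1 pooled list, and for the same reason no replicate could be left out. The ratios given below stayed above 1 under each alternative run. The alternatives kept only entries with a q-value under 0.05, the upper 50% of entries by −log10 q, 1 entry per interval or entries with a background under 30 reads, or used a margin of 5 kb, a length limit of 100 kb or genes without Gm-number and Rik symbols. In the order q-value, upper 50%, 1 per interval, margin, length limit and symbols, the sites' share of autosomal entries (24.0%) became 23.0, 20.9, 24.3, 17.4, 15.8 and 23.5%. The density ratio of shorter over long genes (1.07) became 1.09 in the upper 50%, 1.03 with 1 entry per interval, 1.02 with the margin and 1.01 with the length limit. The median fold (2.83) became 3.30, 4.51 and 2.90 under the 3 filters on entries, and the median pileup (22 reads) 27, 41 and 21 reads under those, 20 reads with the margin and 23 reads with the length limit.

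The density within 1 to 5 kb of an end over that beyond 10 kb (1.39) became 1.48 by q-value, 1.75 in the upper 50%, 1.15 with 1 entry per interval and 1.46 with the length limit, and the margin of 5 kb gives no value. The share of shorter genes with a site (50.4%) became 45.1, 34.5 and 49.0% under the filters, 46.7% with the length limit and 51.9% without Gm and Rik genes. The ratio of that share in genes with over genes without a gene-end entry (1.30) became 1.23, 1.07 and 1.20 under the filters, 1.22 with the margin and 1.24 without Gm and Rik genes. The share of motor neuron regulators with a site (95.0%) became 70.0% in the upper 50% and was 81.8 to 95.0% otherwise. With the margin or the length limit, shares of genes count only the genes that still qualify. With background of 30 reads or more left out it was 85.0%, the sites of Mnx1 and Neurog2 being lost.

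The share of sites at coding starts (7.61%) became 9.25, 14.4 and 5.95% under the filters, and 5.61 and 10.3% with 250 and 1000 bp in place of 500 bp. The ratio of median fold at starts over that of the other sites (1.99) became 1.85, 1.50, 2.50, 2.24 and 1.64 in the same order. The share of internal starts with an entry (53.6%) became 47.8% in the upper 50%, 49.3% with 1 entry per interval, and 48.4 and 58.9% with 250 and 1000 bp. The ratio of that share at 16 or more over 5 or fewer CG (6.60) became 7.61 by q-value, 10.4 in the upper 50%, and 7.68 and 4.68 with 250 and 1000 bp. The cause of these shifts was not tested. Of 101 named genes, the count of sites stayed within 1.5 times in 92 by q-value, 27 in the upper 50%, 65 with 1 entry per interval, 59 with the margin and 66 with the length limit. Set against all shorter genes, 4 of 32 list values changed sides. These were the cholinergic share with the margin (27.3%, all genes 49.7%), the endothelial density with the margin (53.9 per Mb, all genes 54.6), the epidermal density by q-value (44.9, all genes 46.5) and with the margin (46.7), and the housekeeping density with 1 entry per interval (33.6, all genes 45.0), without high background (53.2, all genes 58.8) and with the margin (39.0). The motor neuron density was 3.82 to 4.61 times that of all shorter genes under these alternatives (4.09 as reported). A pileup of under 11 reads gave no entry, so weakly open sequence is not seen.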

Other observations

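Of 452 miRNA hairpins in the sequence of shorter genes outside gene ends, 43 (9.51%) lay within 500 bp of a site. The share of that whole sequence within 500 bp of a site was not computed, so no excess or lack is shown. The following genes were chosen after their values were seen. Mir34b and Mir449c, members of a miRNA family known from multiciliated cells, each lay beside a site of 5-fold or more. Their 5p products share the seed (bases 2 to 8, in capitals), from RefSeq (GRCm38.p6). Mir128-2, a brain miRNA gene within Arpp21, gives a 3p product with another seed.
mmu-miR-34b-5p: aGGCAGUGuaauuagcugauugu
mmu-miR-449c-5p: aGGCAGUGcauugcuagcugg
mmu-miR-128-3p: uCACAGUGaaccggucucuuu
The site beside Mir34b (chr9:51103410-51104303) had 56 reads at 6.61-fold, 34 bp from the hairpin, and that beside Mir449c (chr13:113035836-113036367) had 66 reads at 5.16-fold, 74 bp from it. The site beside Mir128-2 (chr9:112118203-112119237) had 28 reads at 4.41-fold, 61 bp away. Mir3067 in Smoc1 had a site of 8.28-fold with 97 reads at 145 bp, and Mir6540 in Gap43 one of 3.81-fold with 41 reads at 310 bp. The spans of long noncoding RNAs held 2006 of the sites (6.22%), and the share of sequence in those spans was not computed.

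Strong sites also lay in genes of tissues other than the nervous system. In Flt1, a VEGF receptor gene of endothelium, 1 of 11 sites (chr5:147611438-147611670) had 107 reads at 17.0-fold. Gata4, a heart and endoderm factor, had 11 sites, up to 11.0-fold with 87 reads, and Mef2c, a factor of muscle and neurons, had 20, up to 10.7-fold with 137 reads. Klf1, an erythroid factor, had a site of 9.44-fold with 114 reads 1.21 kb from its end. Afp, the alpha-fetoprotein gene of liver and yolk sac, had 4, up to 8.79-fold with 55 reads. Mbp, the myelin basic protein gene of later glia, had 18 sites, up to 8.95-fold with 66 reads. Whether these reads came from other cells was not tested.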
